A study of Drosophila melanogaster with 15 samples.

Results

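The mitochondrial ribosome makes the few respiratory chain subunits that mitochondrial DNA encodes. Its RNAs come from mitochondrial DNA, but all of its proteins are encoded in the nucleus, made in the cytosol and imported. The 69 genes described here are the Drosophila melanogaster genes whose symbol begins with mRpL (large subunit, 44 genes) or mRpS (small subunit, 25 genes) followed by a number. They were found among 11981 genes that had a probe set annotated with 1 gene symbol, and where a gene had more than 1 such probe set the brighter one was used. The rule used names only, and no intensity decided which genes entered. A further split by number separated 40 genes of the numbering shared with bacterial ribosomes (L1 to L36, S1 to S21) from 29 genes numbered above it, most of whose proteins have no bacterial relative. The symbols follow the naming of the proteins and not always their place in the particle: the human relatives of mRpS18A and mRpS30 were located in the large subunit.

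The embryos came from w[1118] flies, a common laboratory strain with white eyes, and were 3-4 hours old at freezing. The control embryos received no radiation, and the other groups received 500 µGy of gamma rays at 22.4 mGy/h at 5, 30, 60 or 90 min before freezing, so that groups irradiated longer before freezing were also younger when irradiated and these cannot be told apart. Each of the 5 groups held 3 biological replicates, lettered A, B and C by the submitters, with 1 Affymetrix array each and 15 arrays in all. Each sample pooled the embryos of many flies. A letter thus ran through all 5 groups with 1 array per group, and the labels do not say what else arrays of a letter shared. At this age the embryo has formed its first cells, begins gastrulation and exchanges the RNA left by the mother for its own transcripts. The patterning genes of this stage eve, ftz, Kr, en, sna and twi, chosen after their values were seen, were all kept by the filter on dim probe sets (6 of 6). Of 13 genes of late embryos measured, that filter kept 12 as well, so passing it does not speak to the stage.

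The number of arrays limited the precision. The median intensity over all probe sets lay between 29.5 and 44.3 in the 15 arrays. The level of the hybridization spike-ins, control RNAs added to each sample, was 10.81 to 10.92 (log2) in the A arrays and 11.36 to 11.74 in the C arrays. The B arrays spanned 10.72 to 11.54, and 60 min B (11.54) and 90 min B (11.52) stood apart from the other B arrays. Counts of genes that differed between letters are therefore given with and without these 2 arrays; the C minus A differences themselves do not change without them, since they hold no A or C array.

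All 69 genes passed the filter, which kept 11261 probe sets at a mean log2(intensity + 1) at or above the 40th percentile. Their mean log2 signals ran from 7.75 to 12.48. By probe-set signal, which does not rank transcripts of different genes, the brightest large-subunit probe sets were those of mRpL4, mRpL10, mRpL49 and mRpL39, and the dimmest those of mRpL43, mRpL38, mRpL3 and mRpL21. For the small subunit the brightest were those of mRpS7, mRpS21, mRpS5 and mRpS18A and the dimmest those of mRpS2, mRpS34, mRpS25 and mRpS26.

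Most of the genes moved together between arrays, with 54 above and 15 below 0 for C minus A. By their medians, the genes moved with the replicate letter far more than with the radiation group. The letter accounted for a median of 68.0% of a gene's sum of squares over the 15 arrays and the group for a median of 7.35%, against 44.8% and 16.3% over all probe sets kept. The first principal component of the 69 genes held 77.5% of their variance. Genes were not scaled to equal spread, so the most variable weighed most, and no such share is given for other genes. This component placed the 5 A arrays at -5.11 to -3.12 and the 5 C arrays at 2.98 to 5.10. 90 min B, at 5.18, lay beyond the highest C array, 60 min B at 0.07, and the other B arrays between -4.14 and -1.12. The second component, with 15.1%, was highest in the 5, 30 and 60 min B arrays and lowest in control C.

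**Figure D1:**
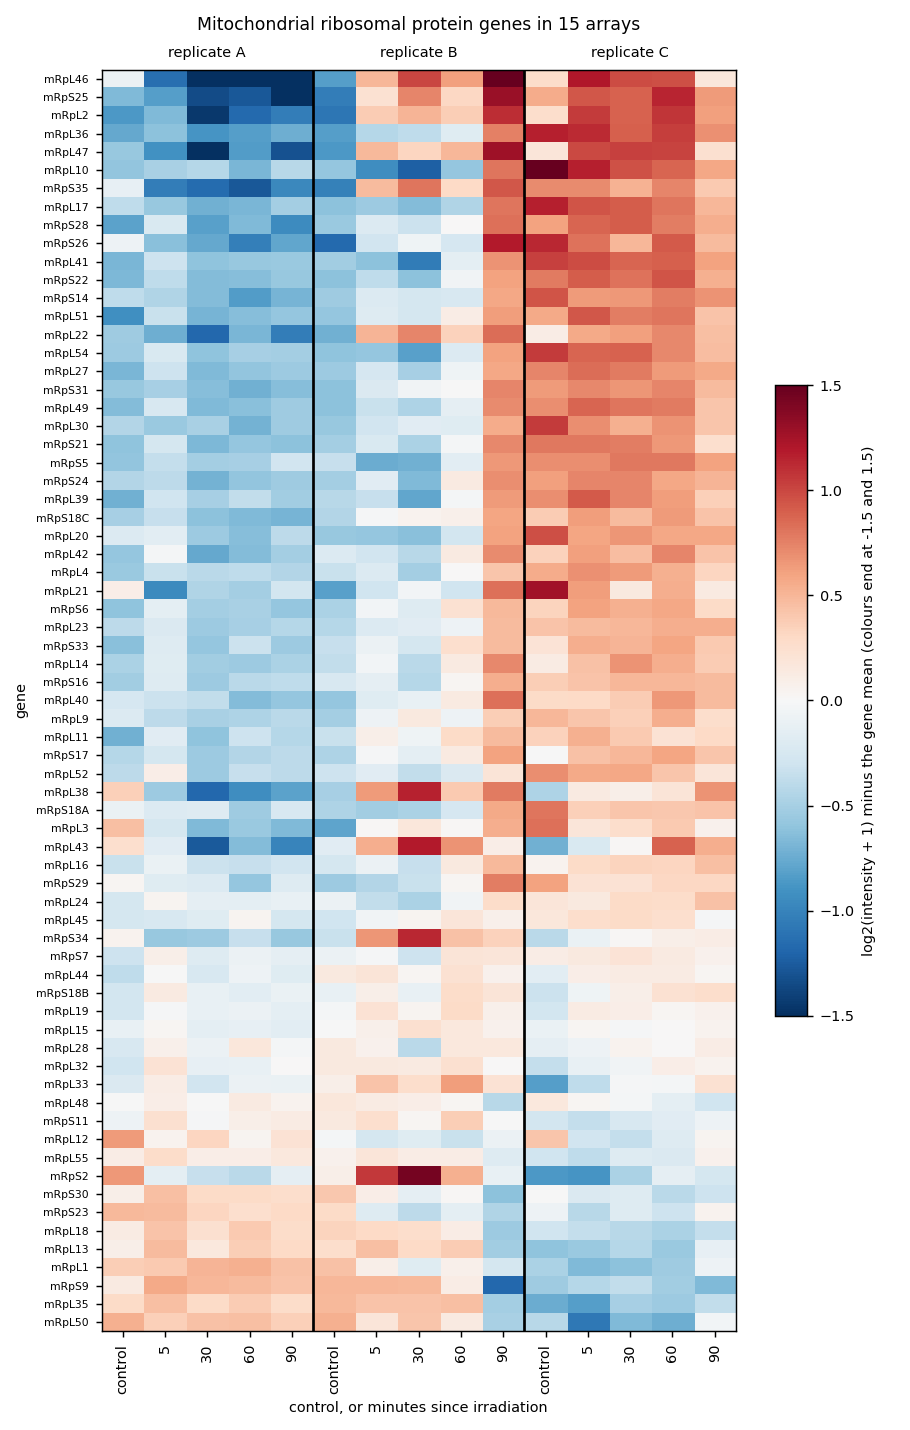
Each row is 1 of the 69 genes and each column 1 of the 15 arrays, ordered by replicate letter and then by group; colour is log2(intensity + 1) minus the gene's mean over all arrays, with colours ending at -1.5 and 1.5. Most genes are low in the 5 A arrays and high in the 5 C arrays, 90 min B looks like the C arrays, and a block of genes at the foot runs the other way.

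Between replicate letters, with the radiation group held fixed, 42 of the 69 genes were higher and 8 were lower in C than in A at an adjusted p under 0.05 (limma, Benjamini-Hochberg over all 11261 probe sets). Over all probe sets tested, 20.8% were called higher and 24.8% lower, and among the 5428 probe sets within the brightness range of these genes 29.6% and 33.7%. The median difference of the 69 genes was 0.85 on the log2 scale against 0.03 over all probe sets, and 54 of the 69 were above 0. In 43 genes every C array lay above every A array (17.4% of all probe sets did), and in 10 every C array lay below every A array (21.4%). Differences ranged from -1.01 for mRpL50 to 2.02 for mRpL46. Without 60 min B and 90 min B, 45 genes were higher and 11 lower, beside 22.3% and 27.2% of all probe sets.

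By the medians of the 69 genes, replicate B lay between the other replicates. Against A, 9 genes were higher and 1 lower in B, beside 7.4% and 7.26% of all probe sets called (9.78% and 10.8% of those as bright), and the median difference was 0.33 (0.02 over all). C exceeded B in 24 genes and was below it in 7, beside 12% and 16.4% of all probe sets (18.6% and 23.4% of those as bright), with a median of 0.41 (-0.04 over all). Complete separation of the arrays was rare here: every B array lay above every A array for mRpL44 alone (4.59% of all probe sets) and below for mRpL12 alone (3.53%), and every C array lay below every B array for mRpS2 and mRpS11 (2.52%). These counts moved with the arrays that stood apart. Without 60 min B and 90 min B, B was higher than A in 1 gene and lower in 0, beside 6.88% and 5.57% of all probe sets, with a median of 0.12. C was above B in 38 genes and below it in 9, beside 18% and 24.8% of all probe sets.

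Genes of both subunits and of both numbering classes were called in either direction. Of 44 large-subunit genes, 26 were higher and 5 lower in C than in A (median 0.81), and of 25 small-subunit genes 16 were higher and 3 lower (median 0.90). Among the 40 genes with bacterial numbering, 24 were higher and 5 lower (median 0.81), and among the 29 genes numbered above it 18 and 3 (median 1.02). Without 60 min B and 90 min B the counts were 27 and 7 for the large subunit, 18 and 4 for the small, 25 and 7 for bacterial numbering and 20 and 4 for the rest. No difference between the classes was tested.

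**Figure D2:**
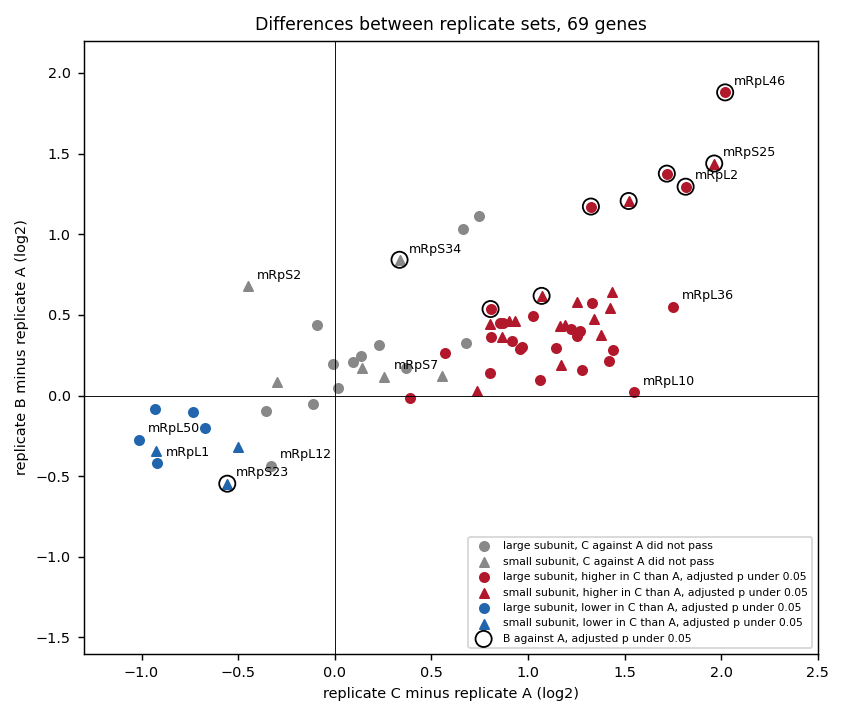
Each point is 1 of the 69 genes, with its log2 difference between replicates C and A on the horizontal axis and between B and A on the vertical axis; circles are large-subunit and triangles small-subunit genes, colour marks the call of C against A and a black ring a call of B against A. Most genes lie to the right with B close to A or between A and C, while mRpL46, mRpS25 and mRpL2 lie high on both axes and mRpL50 and mRpL1 lie to the left.

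The genes are described by 3 patterns and the genes outside them. The share of all probe sets with the same combination of calls was not computed. The first pattern held 24 genes that were higher in C than in both A and B, with B not called against A. Without 60 min B and 90 min B all 24 stayed higher in C than in both. The clearest by p was mRpL36, a small protein of the large subunit with a bacterial relative. Its intensity in the A arrays was 965, 1073, 889, 931 and 991 in control, 5, 30, 60 and 90 min embryos. The B arrays gave 929.7, 1221, 1262, 1447 and 2779.7 in the same order, and the C arrays 3704, 3583, 3070.4, 3392 and 2650.1. No A array reached any C array, and 90 min B alone of the B arrays lay within the C range. C exceeded A by 1.75 ± 0.24 (log2 difference ± SE, 5 arrays a letter; 3.36-fold; adjusted p = 0.000218) and B by 1.20 ± 0.24 (adjusted p = 0.00915).

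mRpL10 carries the dimers of L12 that form the stalk, the arm of the ribosome that recruits elongation factors. Its A arrays held 2350.1, 2528, 2624, 2196 and 2653 and its B arrays 2374, 1853, 1519, 2373 and 6155. Its C arrays held 10321, 7960.3, 6887, 6489 and 5277. The A and the first 4 B values overlapped, and 90 min B lay above the lowest C value. C exceeded A by 1.55 ± 0.29 (adjusted p = 0.00101), and B differed from A by 0.02 ± 0.29 (adjusted p = 0.973).

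The same pattern was shared by mRpL4, whose bacterial relative lines the tunnel through which the new protein leaves, at 0.97 ± 0.16 for C against A. mRpL17, whose relative sits near the mouth of that tunnel, stood 1.44 ± 0.24 higher. mRpL27, near the site of peptide bond formation in bacteria, ran from 1306 to 1697 in A and from 3118 to 3761 in C, and the ranges did not overlap. Proteins of the mitochondrial particle without a bacterial relative were among them as well. mRpL51 differed by 1.33 ± 0.18, mRpL41 by 1.42 ± 0.25, mRpL54 by 1.28 ± 0.23 and mRpL49 by 1.25 ± 0.21. On the small subunit, mRpS5, whose bacterial relative guards the entry of the mRNA, held 2188 to 2712 in A and 5037 to 5745 in C (1.17 ± 0.20). mRpS14 (1.34 ± 0.20), mRpS22 (1.38 ± 0.20), mRpS28 (1.43 ± 0.23), mRpS31 (1.25 ± 0.20) and mRpS21 (1.19 ± 0.21) lay in the same range. For mRpS14 every C array lay above every B array, which held for 1 of the 69 genes and 3.46% of all probe sets.

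The second pattern held 8 genes, mRpL2, mRpL11, mRpL22, mRpL46, mRpL47, mRpS18C, mRpS25 and mRpS35, that were higher in both B and C than in A, with C not called against B. The B against A calls behind this pattern rested on few arrays: without 60 min B and 90 min B mRpL22 alone was still called higher in B than in A, with differences of 0.33 to 1.36 over the 8 genes, and C was then called above B for mRpL2, mRpL11 and mRpS18C. Without 90 min A no gene was called between B and A. All 8 stayed higher in C than in A without the pair of B arrays. mRpL46, a mitochondria-only protein, had the largest SD over the 15 arrays (1.17 log2). Its intensity was 558, 271, 146, 188 and 193 in the A arrays in the order control, 5, 30, 60 and 90 min. In the B arrays it was 335, 836, 1186, 909 and 1823, and in the C arrays 721, 1370.0, 1169, 1162 and 668. Control A was the highest of the A arrays and control B the lowest of the B arrays, so the 2 controls lay closer to each other than the irradiated arrays of those letters. C exceeded A by 2.02 ± 0.46 (4.06-fold; adjusted p = 0.00347) and B exceeded A by 1.88 ± 0.46 (adjusted p = 0.0213).

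mRpS25, with the next largest SD, behaved alike in these arrays. Its values were 363, 325, 226, 238 and 193 in A, 279, 677, 957, 712 and 1409.9 in B, and 846, 1099.6, 1062, 1273 and 894 in C. The differences were 1.96 ± 0.35 for C against A (adjusted p = 0.000756) and 1.44 ± 0.35 for B against A (adjusted p = 0.0209). mRpL2, whose bacterial relative lies at the heart of the large subunit, gave 381, 434, 252, 306 and 335 in A, 325, 900.5, 984, 893 and 1489 in B, and 832, 1434, 1271, 1452 and 1060.3 in C. Control B again lay among the A values while the 4 irradiated B arrays lay above every A value. mRpL2 stood 1.82 ± 0.30 higher in C (adjusted p = 0.000452) and 1.29 ± 0.30 higher in B (adjusted p = 0.0166). mRpL22, which lines the exit tunnel in bacteria, was 1.33 ± 0.26 and 1.17 ± 0.26 higher. For mRpL47 the differences from A were 1.72 ± 0.33 in C and 1.38 ± 0.33 in B, and a second probe set of the gene gave 1.55 (adjusted p = 0.00234) in C. mRpL11, at the base of the stalk, differed less, at 0.81 ± 0.15 and 0.54 ± 0.15. In 10 further genes, among them mRpS26, mRpL21 and mRpS17, C was above A and no other letter difference was called.

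The last pattern ran against the rest. mRpL1, mRpL13, mRpL35 and mRpL50 were lower in C than in both A and B, mRpL18, mRpS9 and mRpS30 were lower in C than in A, and mRpS23 was lower in both B and C than in A. Without 60 min B and 90 min B all 8 stayed lower in C than in A, and mRpS23 was no longer called in B. mRpL50, a mitochondria-only protein, held 958, 847, 898, 908 and 846 in A, 955, 751, 882, 725 and 473 in B and 495, 314, 418, 398 and 644 in C. No C value reached an A value, and 90 min B again lay among the C values. C was below A by 1.01 on the log2 scale, that is at -1.01 ± 0.23 (2.02-fold lower; adjusted p = 0.00315). mRpL35 held 1411 to 1599 in A and 655 to 904 in C, with 818 in 90 min B and 1565 to 1627 in the other B arrays (C against A -0.93 ± 0.20, adjusted p = 0.00224). mRpL1, whose bacterial relative forms the arm beside the exit site of spent tRNA, held 2072 to 2322 in A and 1015 to 1523 in C (-0.92 ± 0.17, adjusted p = 0.000855). For mRpS9, whose bacterial relative touches the tRNA in the peptidyl site, the difference was -0.93 ± 0.24 (adjusted p = 0.00632), and 90 min B was the lowest of all arrays at 871.

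The calls in this last pattern depended on how arrays were set to a common level. The C arrays had lower median signals over the probe sets kept (7.53 to 7.87 log2) than the A arrays (8.04 to 8.56), and centring each array on that median moved the median C minus A difference of all probe sets from 0.03 to 0.50. After centring, 53 of the 69 genes were higher in C and 0 lower, beside 32.7% and 15.8% of all probe sets. All 42 genes called higher stayed so under centring and under quantile normalization. Of the 8 called lower, 6 were still lower under quantile normalization and 0 under centring, although all 8 kept a difference below 0. With the spike-in level as a covariate no letter difference of any of the 69 genes passed, and 4 of the 42 (mRpL21, mRpL40, mRpS18A and mRpS26) and 3 of the 8 (mRpL13, mRpS9 and mRpS30) changed sign. Shares of all probe sets called under quantile normalization or with the covariate are not given here, so these counts cannot be set beside them. That covariate itself separated A from C, so that its part and that of the letter cannot be told apart.

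**Figure D3:**
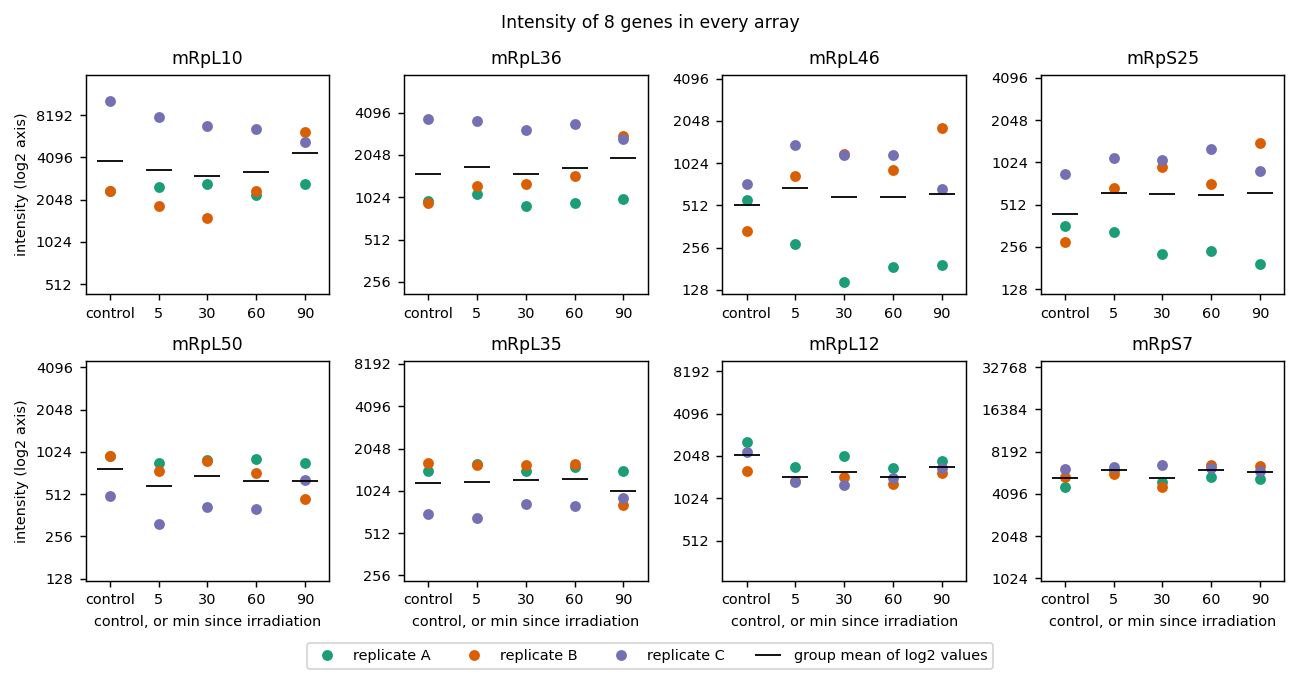
Intensity of 8 genes in each of the 15 arrays, on log2 axes of equal span, by group on the horizontal axis (control, or minutes since irradiation) and by replicate letter in colour; the short lines are means of the 3 log2 values. mRpL10 and mRpL36 are high in all C arrays and in 90 min B, mRpL46 and mRpS25 are low in the irradiated A arrays, mRpL50 and mRpL35 are low in the C arrays, and mRpL12 is highest in the control of each letter.

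Genes that occupy the same functional centre did not always share a pattern. In the stalk, mRpL10 was higher in C while its partner mRpL12 was at -0.33 ± 0.14 against A (adjusted p = 0.0683). In the core, mRpL2 and mRpL4 were higher in C, and mRpL3, at 0.68 ± 0.30, did not pass on the deposited scaling (adjusted p = 0.0853). In the same limma fit mRpL3 passed under quantile normalization (1.02, adjusted p = 0.0108) and under centring (1.15, adjusted p = 0.00649). With the spike-in covariate mRpL3 was at -0.59 and did not pass. Of the 3 relatives of bacterial S18, mRpS18C (1.07 ± 0.18) and mRpS18A (0.74 ± 0.19) were higher in C and mRpS18B was at 0.14 ± 0.13 (adjusted p = 0.412). mRpS18A was 0.71 ± 0.19 higher in C than in B, and mRpS18C was 0.62 ± 0.18 higher in B than in A. Differences between these genes were not tested.

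Another 15 genes had no letter difference that passed, and the share of all probe sets without one was not computed. Without 60 min B and 90 min B, mRpL12, mRpL45, mRpL55, mRpS7 and mRpS29 passed for C against A, 3 of them higher and 2 lower. The 15 genes included mRpL15, mRpL19 and mRpL28, which varied least over the 15 arrays (SD 0.11, 0.16 and 0.16 log2). mRpL15 ran from 1456 to 1653 in A, from 1610.5 to 1907 in B and from 1515 to 1682 in C, and the 3 ranges overlapped. mRpL32, which the mitochondrial m-AAA protease trims before it joins the ribosome in yeast and mouse, was at -0.01 ± 0.14 for C against A (adjusted p = 0.962). mRpS7, whose bacterial relative starts the assembly of the head of the small subunit, held 4607 to 6101 in A and 5982 to 6575 in C (0.26 ± 0.12, adjusted p = 0.0886). mRpS29, relative of the human GTP-binding protein DAP3, was at 0.56 ± 0.23 (adjusted p = 0.0685). mRpS11 was not one of these 15: with mRpL33 and mRpS2 it was lower in C than in B and not called against A. Its C minus B difference was -0.38 ± 0.12 (adjusted p = 0.0369). Its probe sets disagreed in their C against A call: the brighter one was at -0.30 ± 0.12 (adjusted p = 0.0697), and a second was at -0.54 ± 0.17 (adjusted p = 0.0212). The probe set of mRpS10, shared with another gene and therefore not counted among the 69, was at 0.53 (adjusted p = 0.00333), and the likewise shared one of mRpL53 at 0.46 (adjusted p = 0.0613).

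The radiation contrasts called none of these genes. No time after 500 µGy, nor the mean of the 4 irradiated groups, nor 90 min against 5 min, nor the test of any difference among groups called any of the 69 genes at an adjusted p under 0.05 (limma), and the percentage called over all 11261 probe sets was also 0 in each. At an unadjusted p under 0.05, 0 of the 69 genes passed in any of these contrasts, beside 2.63% of all probe sets at 5 min, 1.47% at 30 min, 2.47% at 60 min, 1.6% at 90 min, 3.59% for the mean, 1.46% for 90 against 5 min and 0.835% in the test among groups. For the median gene the unadjusted 95% interval of the difference at 1 time reached 0.99 to either side on the log2 scale. Changes larger than this could also miss the adjusted threshold. In a fit that also held the letter (a replicate block) the same interval reached 0.55, and again 0 genes were called. The block left 1 gene at an unadjusted p under 0.05 at 5 min, 1 at 30 min, 3 at 60 min, 1 at 90 min, 1 for 90 against 5 min and 0 in the test among groups, beside 11.1%, 6.75%, 11.4%, 9.54%, 4.49% and 4.7% of all probe sets.

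The differences from control were small and mostly above 0. Their median over the 69 genes was 0.17 at 5 min (52 genes above 0), 0.05 at 30 min (39), 0.15 at 60 min (50) and 0.23 at 90 min (56). Over all probe sets the medians were 0.07, 0.07, 0.06 and 0.05, and 55.2%, 56.0%, 54.3% and 54.1% were above 0. The 39 of 69 genes at 30 min were near that share. The 4 comparisons share their 3 control arrays. For the mean of the irradiated groups the median was 0.14 (0.04 over all), with 50 genes above 0, beside 53.9% of all probe sets. The median was largest within B: within letter A the irradiated arrays exceeded their control by a median of 0.07, within B by 0.41 and within C by 0.03 (all probe sets -0.02, 0.10 and 0.08). Without control A the median for the mean was 0.02, without control C 0.41, and without 60 min B and 90 min B 0.09. In bulk RNA, fewer cells of a type and less RNA per cell cannot be told apart.

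**Figure D4:**
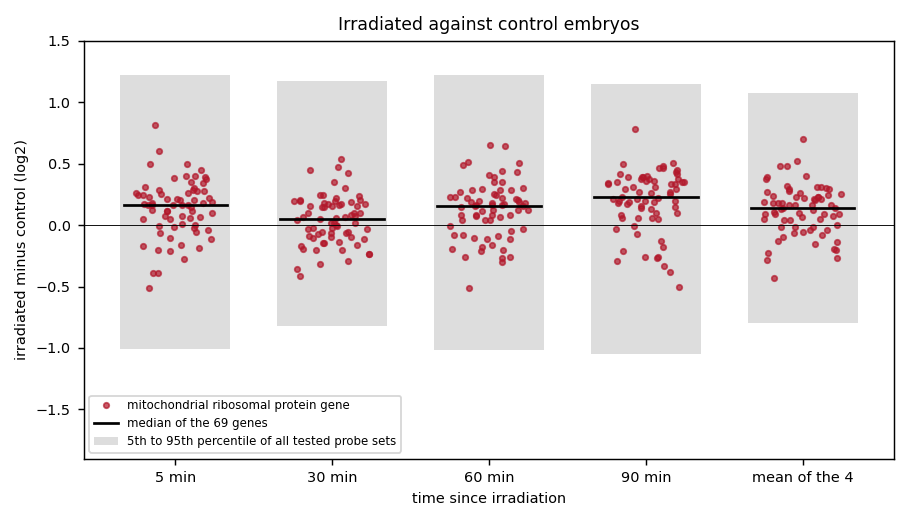
Each point is 1 of the 69 genes with its log2 difference between irradiated and control embryos, at each time and for the mean of the 4 times; the black line is their median and the grey band the 5th to 95th percentile of all probe sets tested. The points lie within the grey band in every column, with medians between 0.05 and 0.23.

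The gene furthest below control was mRpL12, the stalk protein that elongation factors touch. Control embryos gave 2553, 1606 and 2190.1 in A, B and C. The irradiated embryos gave 1697, 1361 and 1344 after 5 min, 2055, 1449 and 1279.7 after 30 min, 1684, 1297 and 1427 after 60 min, and 1898, 1537 and 1682 after 90 min. All 12 irradiated arrays lay below the control of their own letter, as in 1.89% of all probe sets, but control B lay below the 4 irradiated A arrays and 90 min C. The mean difference was -0.43 ± 0.22 (adjusted p = 0.978), and with the replicate block the unadjusted p was 0.00963 and the adjusted p 0.216. By time the difference was -0.51 at 5 min, -0.41 at 30 min, -0.51 at 60 min and -0.29 at 90 min, and no value passed.

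On the other side, mRpS18B and mRpL19 lay slightly above control in most arrays. mRpS18B held 2096, 2356 and 2037 in the controls, 2779, 2707 and 2430.4 after 5 min, 2343, 2344 and 2691 after 30 min, 2279, 3064 and 2972 after 60 min, and 2375, 2893 and 3038 after 90 min. Its 5 and 90 min arrays did not overlap the controls, and 11 of 12 irradiated arrays exceeded their own control (mean 0.29 ± 0.18, adjusted p = 0.978). mRpL19, at the interface of the subunits in bacteria, held 1508, 1792 and 1507 in the controls and 1813, 2120.1 and 1990.4 at 5 min, and 12 of 12 irradiated arrays exceeded their own control (mean 0.24 ± 0.18, adjusted p = 0.978). mRpS33 also had 12 of 12 above (0.32 ± 0.31, adjusted p = 0.978); 2.90% of the 69 genes did so, beside 4.24% of all probe sets. At 5 min 3 genes (mRpL15, mRpL19 and mRpS18B; 4.35%) had all arrays above all controls, beside 5.32% of all probe sets. At 90 min only mRpS18B did (1.45%, beside 2.78%), and no gene did at 30 or 60 min (2.36% and 4.28%). No gene had all arrays of a time below all controls, beside 2.2%, 0.506%, 1.47% and 0.755% of all probe sets at 5, 30, 60 and 90 min.

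The mean differences of mRpL33 (0.40 ± 0.25) and mRpS17 (0.37 ± 0.29) above control and of mRpS23 (-0.29 ± 0.27), mRpS30 (-0.20 ± 0.24) and mRpL48 (-0.14 ± 0.19) below it did not pass either. At single times mRpL33 stood at 0.30, 0.49 and 0.43 at 30, 60 and 90 min, and mRpS34 at 0.42 at 30 min. mRpL50 was at -0.39 at 5 min, mRpS23 at -0.32 at 30 min and -0.30 at 60 min, and mRpL48 and mRpS30 at -0.33 and -0.38 at 90 min. The largest mean difference, 0.70 ± 0.61 for mRpL2, came with -0.23 within A, 1.68 within B and 0.64 within C. With the replicate block the SE of mRpL2 was 0.30 (limma, unadjusted p = 0.0396, adjusted p = 0.327). SEs of the radiation differences named here and above otherwise come from the fit without the letter. For the mean, the median SE of the 69 genes was 0.37 in that fit and 0.20 with the block. With the replicate block 5 genes had an unadjusted p under 0.05 for the mean (mRpL2, mRpL12, mRpL33, mRpS17 and mRpS18B, 4 of them above control), beside 14.4% of all probe sets, and the smallest adjusted p was 0.216.

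The other genes of mitochondrial gene expression lay in both directions between the replicates. The list held 45 genes (translation factors, mitochondrial tRNA synthetases, transcription and replication factors and RNA-binding proteins), of which 38 were measured and kept. Between C and A 12 were higher and 11 lower (31.6% and 28.9%, beside 20.8% and 24.8% of all probe sets), with a median of 0.04. The higher ones included both copies of elongation factor Tu, which delivers the tRNA to the ribosome, mEFTu1 (1.07 ± 0.25) and mEFTu2 (1.11 ± 0.19), the DNA-packaging transcription factor TFAM (0.97 ± 0.20), the RNA-binding SLIRP2 (1.52 ± 0.28) and the tRNA synthetase MetRS-m (1.10 ± 0.21). The lower ones included the tRNA synthetases AspRS-m (-2.59 ± 0.40), AsnRS-m (-2.15 ± 0.62) and CysRS-m (-1.89 ± 0.39), the transcription factor mtTFB2 (-2.36 ± 0.37), the ribosome recycling factor mRRF1 (-1.71 ± 0.31) and the mitochondrial RNA polymerase PolrMT (-1.12 ± 0.24). All of these passed the test.

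This list also held 2 small-subunit proteins that carry older names. tko encodes the mitochondrial S12 protein, and its mutants show bang sensitivity, a seizure-like response to shock. It held 3313 to 4706 in A and 6956 to 9889 in C and was 1.27 ± 0.24 higher in C (adjusted p = 0.000897). bonsai encodes the mitochondrial S15 protein, and it held 1238 to 1457 in A and 360 to 545 in C, 1.52 lower on the log2 scale (-1.52 ± 0.29, adjusted p = 0.00115). Neither had ranges that overlapped, and they ran in opposite directions. Afg3l2, a subunit of the m-AAA protease that trims mRpL32, was 0.53 ± 0.16 higher in C (adjusted p = 0.0146) and Spg7, the other subunit, was at 0.56 ± 0.31 (adjusted p = 0.156). Under irradiation 0 of the 38 were called, the median of the mean difference was -0.21 and 30 were below 0.

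**Figure D5:**
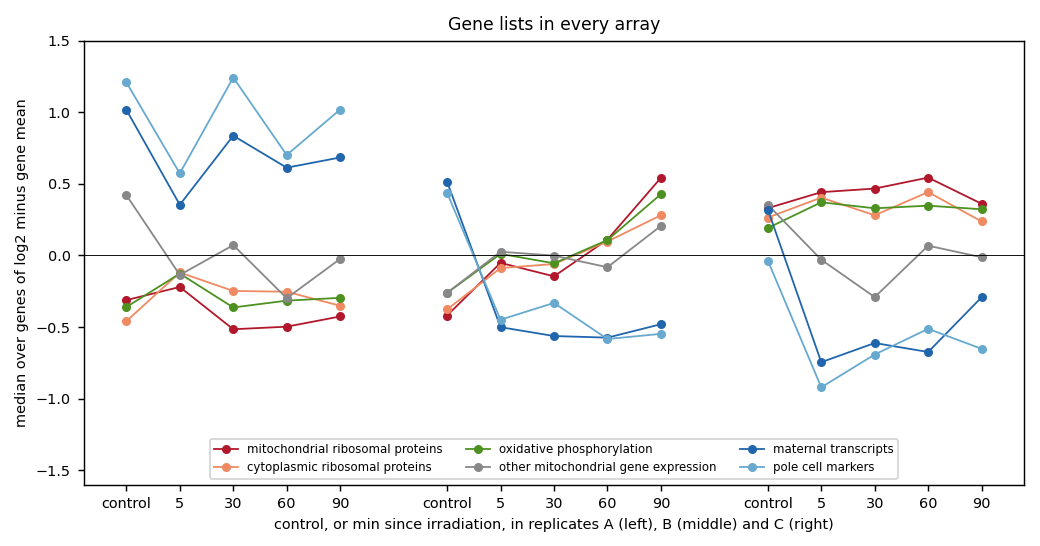
Each point is the median, over the genes of a list, of log2(intensity + 1) minus the gene's mean over all arrays, for the 5 arrays of replicate A (left), B (middle) and C (right). The mitochondrial ribosomal proteins, the cytoplasmic ribosomal proteins and the oxidative phosphorylation genes run from below 0 in A to above 0 in C, and the maternal and pole cell lists are high in A. The maternal list is also above 0 in control B and control C, and the pole cell list in control B. Both lists are below 0 in the irradiated B and C arrays.

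The proteins of the cytoplasmic ribosome and of the respiratory chain were set beside these genes because they also serve translation and mitochondria. Over all probe sets 20.8% were higher and 24.8% lower in C than in A. Of 40 cytoplasmic ribosomal protein genes kept, 32 were higher and 1 lower (80% and 2.5%, median 0.67). Of 57 genes of oxidative phosphorylation kept, 32 were higher and 11 lower (56.1% and 19.3%, median 0.61). The mitochondrial ribosomal proteins were at 42 and 8 of 69 (60.9% and 11.6%, median 0.85). RpLP0, the cytoplasmic partner of the stalk, held 23943 to 29961 in A and 42874 to 49904 in C, and COX5A of the last respiratory complex 8248 to 11150 in A and 18871 to 26714 in C. Among the lower genes, RpL27 held 22672 to 26987 in A and 7753 to 10954 in C. COX7A, of the same complex as COX5A, held 2798 to 4004 in A and 835 to 1113 in C. Neither list had a called gene under irradiation, with 38 of 40 and 40 of 57 genes above 0 and medians of 0.24 and 0.15 for the mean.

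Markers of other RNA sources were compared between the letters in the same way, beside the 24.8% of all probe sets that were lower in C than in A and the 7.26% that were lower in B. Of 25 maternal transcripts kept, 14 were lower and 2 higher in C than in A (median -1.14), and in B 10 were lower. Their summed intensity was 81415 to 111425 in the A arrays, 58319 to 81643 in B and 48506 to 87734 in C. oskar (osk), an RNA stored at the posterior pole of the egg, held 1811 to 5428 in A and 309 to 1031 in C. Of 9 pole cell markers, 7 were lower in C (median -1.56), with sums of 23715 to 34770, 19804 to 23950 and 19748 to 31215 in A, B and C. Of 12 genes of late embryos 4 were lower and 0 higher (median -0.83), with sums of 4208 to 12591 in A and 2475 to 6342 in C. Of 6 yolk and hemocyte markers 2 were lower and 0 higher (median -0.65). The lower shares of these last lists, 33.3% each, were near that of probe sets as bright as the ribosomal protein genes (33.7%). Without 60 min B and 90 min B, 16 maternal and 7 pole cell genes were lower in C than in A and 12 maternal genes were lower in B. No gene of these lists was at 0 in any array, and 5 of the genes kept stood in both the maternal and the pole cell list. The mean of the irradiated groups was below control in 24 of 25 maternal and 9 of 9 pole cell genes (medians -0.62 and -0.81), with 0 called. The part of these RNAs, of the spike-in level and of array brightness in the letter differences of the ribosomal protein genes was not tested.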

How the data were processed

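The authors deposited a table of MAS5 intensity values on a linear scale, per the submitters' processing notes; the MAS5 version and scaling are not given in the sources used here, and the deposited scaling was kept. Total RNA was copied from an oligo(dT) primer, per the labels' protocols. All 69 genes matched the RefSeq table of assembly Release 6 by Entrez identifier, with 0 symbols changed; no coordinates are given because the deposited table names no build. Of 18952 probe sets, 183 Affymetrix controls were left out.

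Values were taken as log2(intensity + 1), so that a fold change of a dim probe set is understated. Probe sets at or above the 40th percentile of mean log2 value, 15.4 in intensity, were fitted together (limma 3.58.1 under R 4.3.3; lmFit, then eBayes with a trend on intensity) using all 15 arrays, without a block for radiation groups and with group and letter for letters. All p-values are two-sided and were adjusted by Benjamini-Hochberg over 11261 probe sets, with a threshold of 0.05. P-values measure the spread between these samples. For the letters this is the spread of arrays left after group and letter. Since each letter is a single set of arrays, these p-values do not measure a spread between repeated sets.

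The letters were checked as pairs by correlating deviations from group means of same-letter arrays with control: 0.40 to 0.67 at 5 min, 0.22 to 0.63 at 30 min and 0.27 to 0.61 at 60 min, taken as paired, and -0.30 to 0.50 at 90 min, not paired. The pairing comes from the data, not from the labels. The main radiation fit did not use it at any time, and the replicate block, an alternative, held the letter at every time.

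Named genes were up to 8 per direction and contrast with the smallest p, the smallest p where fewer passed, the brightest and dimmest, the most and least variable, and 14 of known role. The genes, lists and rules were chosen with earlier results of these data known. Simulated data with known changes were used to check the fits: for C against A the fit recovered 26.2% of changes of 1 and 67% of changes of 2 on the log2 scale over 11261 probe sets, with a mean of 5.8 false calls, and for 5 min against control 16.8% and 52.6% with 3.8. The simulated spread came from a fit with group and letter, and no letter effect was simulated. The radiation fit held no letter, and its median residual SD was 0.78, against 0.55 with the replicate block. The 5 min rates are thus too high for these data. Far fewer probe sets were changed than were called for C against A, so those rates do not describe that contrast either. Alternatives were the replicate block, scaling, pseudocount, filter, trend, groups fitted, spike-in covariate and arrays left out. A planned search of promoters for motifs was not run.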

Additional observations from a re-analysis of the deposited data

How the results depend on the processing

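None of 194 alternative counts for the radiation contrasts called any of the 69 genes. With the replicate block the count was 0 in each contrast and the median for the mean of irradiated groups stayed at 0.14; the block changed no call. Of 514 alternative counts and medians 34 moved and 480 did not, and of 1624 for named genes 1418 kept direction and call, 200 kept direction only and 6 changed sign. The number of genes differing between B and A, 10, became 6 without a filter, 5 without the intensity trend, 20 under quantile normalization, 0 with the spike-in covariate and 1 without 60 min B and 90 min B. The number between C and B, 31, became 0 with the covariate and 47 without those 2 arrays, and between C and A, 50, became 0 with the covariate. Medians moved to 0.086 (B against A), 0.20 (C against A) and 0.049 (C against B) with the covariate, to 0.12 (B against A) and 0.67 (C against B) without those 2 arrays, and to 1.33 (C against A) and 0.79 (C against B) after centring. Leaving out single arrays gave 0 to 22 genes for B against A, with 22 without control B, 6 without 30 min B, 30 min C or 60 min C, 5 without 5 min A, B or C, 1 without 30 min A, 60 min A or 60 min B, and 0 without 90 min A. For C against B it gave 14 to 49, with 49 without 90 min B, 20 without 60 min C, 19 without control B, 18 without 30 min B or C, 17 without 5 min C, 15 without control C and 14 without 5 min B. For C against A it gave 46 to 57. Matching shares of all probe sets are not given for the covariate, quantile normalization, filter, trend or single arrays left out. With the covariate mRpL13 (0.051), mRpS9 (0.20) and mRpS30 (0.0026) turned to above 0 for C against A, and after centring mRpS11 (0.0034) for C against B. With single arrays left out mRpL50 at 5 min ranged from -0.71 to 0.055 (without 5 min C), and mRpS34 at 30 min from -0.040 (without 30 min B) to 0.79. The causes were not tested. Dim probe sets such as that of mRpL43, down to an intensity of 88.9, are the least precise.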
